A study of Saccharomyces cerevisiae with 8 samples.

Results

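YAR066W, YHR214W, YAR068W and YHR214W-A are little-studied open reading frames (ORFs) of budding yeast that lie near the right ends of chromosomes I and VIII. They form 2 paralog pairs: YAR066W on chromosome I pairs with YHR214W on chromosome VIII, and YAR068W on chromosome I pairs with YHR214W-A on chromosome VIII. The ORFs were taken by name, and they were singled out because they had been seen among the genes with the highest ratios of the pdr5 yor1 double mutant over wild type. They are 4 of the 6546 ORFs and other features on the array, and of the 6465 features that remained after the filter on dim probes. Because that contrast chose them, their double mutant over wild type values are given as a description, with no test.

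The ends of yeast chromosomes hold gene families whose copies were exchanged between chromosomes. The right ends of chromosomes I and VIII share such a stretch, which runs from the flocculin genes FLO1 and FLO5 to the secreted acid phosphatase genes PHO11 and PHO12. YAR066W and YHR214W encode putative cell-surface proteins predicted to carry a glycosylphosphatidylinositol (GPI) anchor, the lipid by which many yeast mannoproteins reach the cell wall. YAR068W encodes a fungal-specific protein of unknown function, and YHR214W-A is annotated as a dubious ORF. In the RefSeq annotation of assembly R64, YAR066W and YHR214W are each 612 bases long and YAR068W is 486 bases long, while YHR214W-A has no entry in the table used here. Each of the 4 ORFs had 2 oligonucleotide probes on the array. Probe sequences were not analysed here, so the signal of one paralog cannot be told apart from that of both together, and cross-hybridisation was not tested.

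Total RNA came from the double mutant, with pdr5-∆1::hisG and yor1-1::hisG in the SEY6210 background, from the triple mutant, which carries pdr1::kanMX4 beside the same pdr5 and yor1 alleles, and from wild-type SEY6210. PDR5 and YOR1 encode ABC transporters that pump drugs and lipids out of the cell, and PDR1 encodes a zinc-cluster transcription factor that activates both. The wild-type label gives MATα with leu2-3,-112 and ura3-52, then lys2-801 and trp1-∆901, then his3-∆200, suc2-∆9 and GAL, and the mutant labels give only the background and the deleted genes. Cells grew in YPD, a rich glucose medium, at 30 °C to an OD600 of about 0.6. The double mutant was hybridised against wild type on 4 two-colour arrays and against the triple mutant on 4 others, all on 1 slide, with the double mutant in Cy5 on arrays 1 and 3 and in Cy3 on arrays 2 and 4 of each set. The labels do not say that the arrays of a set came from separate cultures, so spreads and p-values may cover technical variation alone. In RNA from whole cultures, a change in the share of expressing cells and a change in RNA per cell cannot be told apart.

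The labels were checked on the deleted genes first. On the arrays against the triple mutant, PDR1 was well above background in 0 of 4 channels labelled double mutant and in 4 of 4 channels labelled triple mutant. Its background-corrected signal lay at the 0.0573 to 3.21 percentiles of all probes in the channels labelled double mutant and at the 32.6 to 47.6 percentiles in those labelled triple mutant. PDR1 goes against the labels of this set, so each ratio in it is written as the labelled double over the labelled triple channel, by the strain names on the labels, and every such sign turns round if the labels are crossed. On the arrays against wild type, PDR1 was well above background in all channels and its log2 ratio averaged 0.05 ± 0.240 (SD, n = 4 arrays). PDR5 had a log2 ratio of -1.46 ± 0.228 in the double mutant over wild type, whereas YOR1 had 1.94 ± 0.180 (SD, n = 4 each). Where the probes lie relative to the deleted parts of PDR5 and YOR1 is not given in the sources used here, so these values do not check the labels. Median signals per array were 401.7 to 1300 in Cy5 and 116.9 to 1042 in Cy3.

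All 4 ORFs gave more signal in the double mutant than in wild type on every array, by about 4 to 5 times on average, and on the other arrays they gave less signal in the channel labelled double mutant than in the channel labelled triple mutant. Their 8 probes were measured well above background in 128 of 128 channel measurements, with 0 outlier flags and 0 saturated spots.

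YAR066W, the putative GPI-anchored protein gene on chromosome I, had log2 ratios of 2.66, 2.13, 2.61 and 2.15 in the double mutant over wild type on arrays 1 to 4. The arrays with the double mutant in Cy5 gave the higher values, and no array came near 0. Its mean was 2.39 ± 0.290 (SD, n = 4), or 5.23-fold higher in the double mutant. YHR214W, its paralog on chromosome VIII, had log2 ratios of 2.45, 2.06, 2.53 and 2.15 on the same arrays. As for YAR066W, arrays 1 and 3 stood above arrays 2 and 4. The mean of YHR214W was 2.30 ± 0.225 (SD, n = 4), or 4.92-fold higher in the double mutant.

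YAR068W, which encodes the fungal-specific protein, had log2 ratios of 2.22, 2.36, 2.34 and 1.15 in the double mutant over wild type. Array 4 stood far below the other arrays, which lay close together. The mean was 2.02 ± 0.584 (SD, n = 4), or 4.05-fold higher in the double mutant, and it was 2.31 without array 4. YHR214W-A, the dubious ORF on chromosome VIII, had log2 ratios of 2.17, 2.28, 2.28 and 1.06. Array 4 was again the lowest by about a whole log2 unit. The mean of YHR214W-A was 1.95 ± 0.593 (SD, n = 4), or 3.86-fold higher in the double mutant, and it was 2.24 without array 4.

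**Figure D1:**
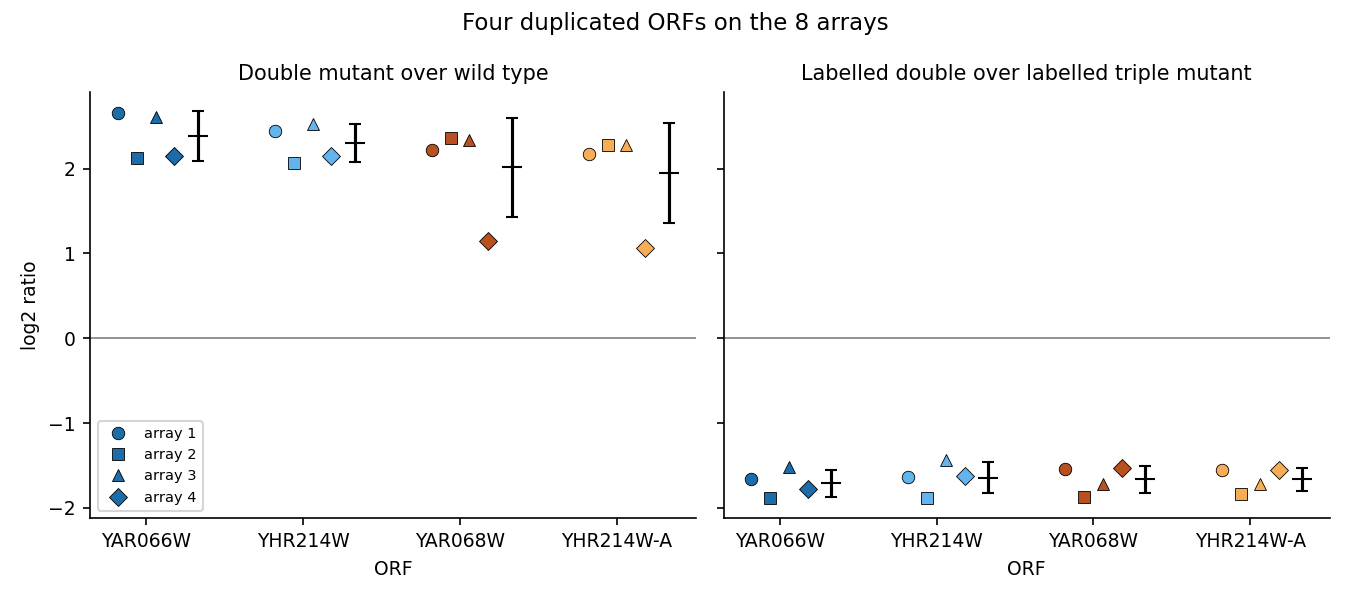
Log2 ratio (vertical axis) of each of the 4 ORFs (horizontal axis) on each array, with the double mutant over wild type at left and the labelled double over the labelled triple channel at right; symbols are arrays 1 to 4 and bars are the mean and SD of 4 arrays. All values at left are above 1 and all values at right are below -1, and array 4 against wild type is low for YAR068W and YHR214W-A (1.15 and 1.06).

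Ranked by the fitted log2 ratio over wild type among 6465 features, YAR066W and YHR214W were 2 and 3 from the top and YAR068W and YHR214W-A were 6 and 7. The neighbours in this order were ICT1 at rank 4 (2.28), GRE2 at rank 5 (2.17) and YOR1 at rank 8 (1.94), and RSB1, a gene for a membrane protein of sphingoid base export, was at rank 1 (3.095). By limma with Benjamini-Hochberg adjustment over all features, 8.2% were called in this comparison at an adjusted p below 0.05, made up of 3.23% higher and 4.97% lower in the double mutant. All 4 ORFs were among the higher calls, which follows from how they were chosen.

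On the arrays against the triple mutant, which were not used to choose the ORFs, the ratios had the opposite sign. By label they carry the same double mutant strain as the other set, and earlier results of them were known, so they are not independent evidence. The limma p-values use a residual spread and a dye term pooled over both sets of arrays. They thus draw also on the arrays that chose the ORFs, and do not reflect the SD printed beside them alone. YAR066W had log2 ratios of -1.66, -1.89, -1.52 and -1.78 in the labelled double over the labelled triple channel. The arrays lay close together, and their mean was -1.71 ± 0.156 (SD, n = 4; limma adjusted p = 6.74e-06). YHR214W had log2 ratios of -1.63, -1.89, -1.44 and -1.62 on these arrays. Its lowest array was the same as for YAR066W, and its mean was -1.65 ± 0.185 (SD, n = 4; limma adjusted p = 1.15e-05).

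YAR068W had log2 ratios of -1.54, -1.87, -1.72 and -1.53 in the labelled double over the labelled triple channel. No array stood apart here, and the mean was -1.67 ± 0.164 (SD, n = 4; limma adjusted p = 0.00343). YHR214W-A had log2 ratios of -1.56, -1.83, -1.71 and -1.55 on these arrays. The arrays fell in the same order as for YAR068W, and its mean was -1.66 ± 0.135 (SD, n = 4; limma adjusted p = 0.00343). For YAR068W and YHR214W-A the pooled spread includes the low array 4 against wild type. Their fitted standard error was 0.173 in either comparison. Signal in the channel labelled triple mutant was thus 3.28 times that in the channel labelled double mutant for YAR066W, 3.13 times for YHR214W, 3.17 times for YAR068W and 3.17 times for YHR214W-A. Of the 4 ORFs, 4 were called lower in the channel labelled double mutant, against 0.541% of all features in that direction, 1.05% in the other and 1.59% in either. The 4 ORFs held ranks 4, 8, 6 and 7 from the lowest ratio, and PDR1, ICT1, RSB1 and YOR1 were at ranks 1, 2, 3 and 5. With the labels of this set crossed, each of these values would read as higher in the double mutant than in the triple mutant by the same size.

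The 4 ORFs were then followed as normalised log2 signal in each channel, set on a common scale across arrays. YAR066W stood at 10.97, 10.72, 10.96 and 10.38 in the double mutant on arrays 1 to 4, against 8.31, 8.59, 8.34 and 8.23 in wild type. On the other set it stood at 8.97, 9.30, 9.06 and 8.40 in the channels labelled double mutant, against 10.63, 11.18, 10.59 and 10.18 in those labelled triple mutant. The channels labelled triple mutant thus overlapped with the double mutant of the first set. The channels labelled double mutant were at 8.40 on array 4 and at 8.97 to 9.30 on the others, and wild type was at 8.23 to 8.59. These signals come from different hybridisations. How often channels overlap between the sets over all features was not counted, so the ranges of the 4 ORFs are a description only.

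YHR214W was high and low in the same channels, with means of 10.60 ± 0.292 in the double mutant and 8.30 ± 0.182 in wild type, and 8.99 ± 0.298 in the channels labelled double mutant and 10.64 ± 0.430 in those labelled triple mutant (SD, n = 4 each). Its channels labelled double mutant ran from 8.66 to 9.37, and wild type ran from 8.06 to 8.49. YAR068W averaged 10.92 ± 0.209 in the double mutant and 8.90 ± 0.409 in wild type, and 9.61 ± 0.220 in the channels labelled double mutant and 11.28 ± 0.383 in those labelled triple mutant (SD, n = 4 each). Its high channels overlapped between the sets of arrays. Its channels labelled double mutant ran from 9.42 to 9.91, and wild type was at 9.50 on array 4 and at 8.60 to 8.82 on the others.

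YHR214W-A averaged 11.12 ± 0.265 in the double mutant and 9.17 ± 0.542 in wild type, and 9.85 ± 0.102 in the channels labelled double mutant and 11.51 ± 0.232 in those labelled triple mutant (SD, n = 4 each). Its channels labelled double mutant ran from 9.75 to 9.94, and wild type was at 9.89 on array 4 and at 8.59 to 9.17 on the others. For YAR068W and YHR214W-A the low ratio on array 4 against wild type went with a high wild-type channel. There YAR068W stood at 10.65 in the double mutant, just below its range of 10.91 to 11.16 on the other arrays, and at 9.50 in wild type, above its range of 8.60 to 8.82. YHR214W-A stood at 10.96 in the double mutant on array 4, within its range of 10.86 to 11.45, and at 9.89 in wild type, above its range of 8.59 to 9.17. YAR066W and YHR214W did not show this on array 4, where their wild-type signals of 8.23 and 8.06 were the lowest of the set. Array 4 of this set had the lowest quality weight of all arrays (0.192) and 23 outlier spots, against 1 to 4 on the other arrays of the set. Outlier spots and weights did not go together over all arrays, since array 4 against the triple mutant had the most outlier spots (87) and the highest weight (4.19). With quality weights in the fit, the ratios over wild type were 2.19 for YAR068W and 2.13 for YHR214W-A.

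**Figure D2:**
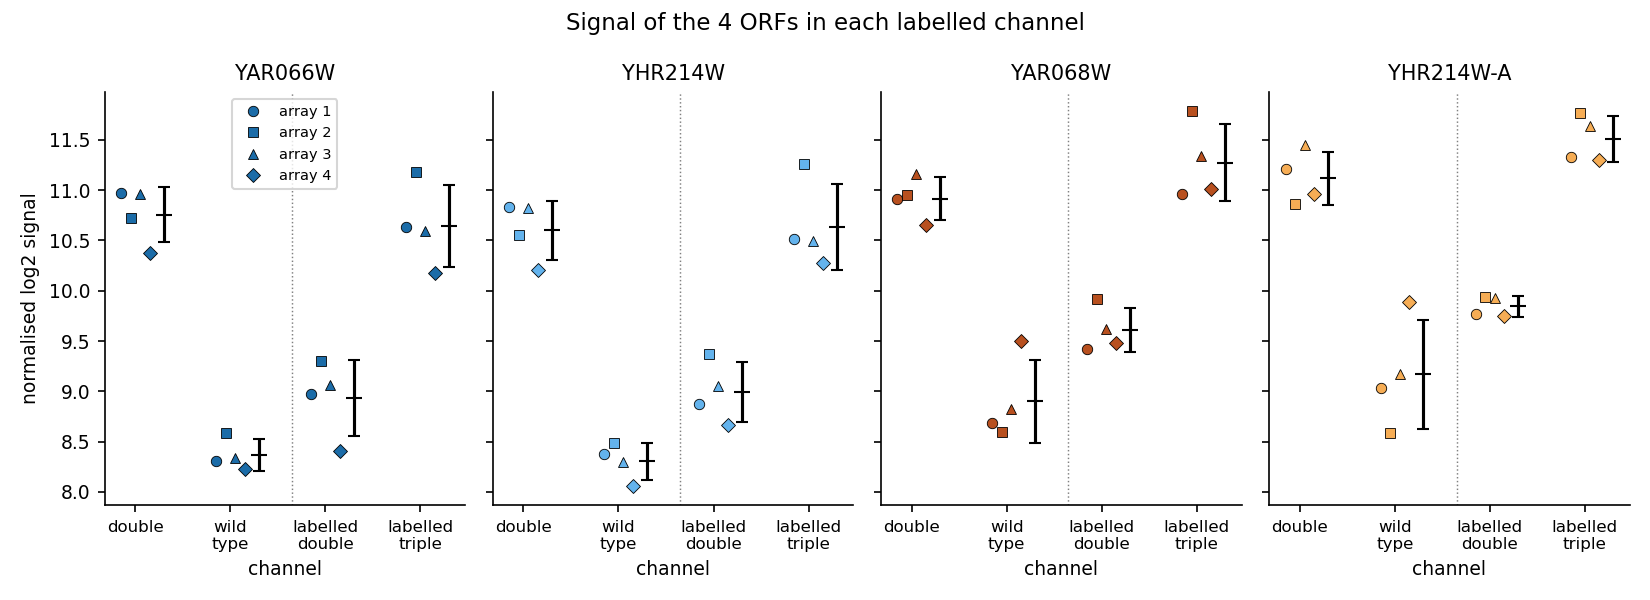
Normalised log2 signal (vertical axis) of the 4 ORFs in each labelled channel (horizontal axis), with the arrays against wild type left of the dotted line and those against the triple mutant right of it; symbols are arrays 1 to 4 and bars are the mean and SD of 4 arrays. The double mutant and the channels labelled triple mutant hold the high values, and the wild-type channel of array 4 is high for YAR068W (9.50) and YHR214W-A (9.89).

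The probes grouped by paralog pair. The difference between probes was measured as the root mean square (RMS) difference of their log2 ratios over the 8 arrays, as a description. The 2 probes of the same ORF differed by 0.0465 to 0.118, and probes of paralogs differed by 0.0496 to 0.112 over 8 probe pairs. Probes of ORFs that are not paralogs differed by 0.392 to 0.457 over 16 probe pairs, a range that lies wholly above the others. Array 4 against wild type weighed most in that distance. There the means of the pairs differed by 1.05, against -0.224 to 0.355 on the other arrays, and the distance without array 4 was not measured. Over the 6407 ORFs with both probes kept, the 2 probes of an ORF differed by a median of 0.0686. Probes of YAR068W and YHR214W-A, at 0.0496 to 0.0656, lay below that median, and probes of YAR066W and YHR214W, at 0.0866 to 0.112, lay above it. Between the brighter probes, YAR066W and YHR214W differed by 0.106, and 85.9% of ORFs had a smaller difference between their own probes. For YAR068W and YHR214W-A these values were 0.0531 and 28.7%. YAR066W had the most unlike probes of the 4 ORFs, at 0.118, and 90.7% of ORFs had a smaller difference. The probe of YAR066W that was not used gave means of 2.28 ± 0.308 against wild type and -1.68 ± 0.152 on the other arrays (SD, n = 4 each). YAR068W was at 0.0465, with 19.6% of ORFs below it.

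Within a pair the mean difference between paralogs was smaller than the SD of either ORF's ratio between arrays. YAR066W minus YHR214W was 0.0888 ± 0.0925 on the arrays against wild type and -0.0669 ± 0.0718 on those against the triple mutant (SD, n = 4 each). On the arrays against the triple mutant this gave p = 0.25 and an adjusted p = 0.5 over both pairs by an exact two-sided sign-flip permutation test, in which 4 arrays cannot go below 0.125. YAR068W minus YHR214W-A was 0.0692 ± 0.0171 on the arrays against wild type, positive on 4 of 4, and -0.00177 ± 0.029 on those against the triple mutant (SD, n = 4 each; exact permutation p = 0.875, adjusted p = 0.875). These p-values do not show that the paralogs respond alike, and a like response cannot be told apart from a shared signal.

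The pairs themselves moved apart on single arrays. The mean of YAR066W and YHR214W minus the mean of YAR068W and YHR214W-A was 0.355, -0.224, 0.259 and 1.05 on arrays 1 to 4 against wild type. The sign changed with the array, and array 4 held the largest difference. On the arrays against the triple mutant the same difference was -0.0959, -0.0354, 0.233 and -0.161.

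**Figure D3:**
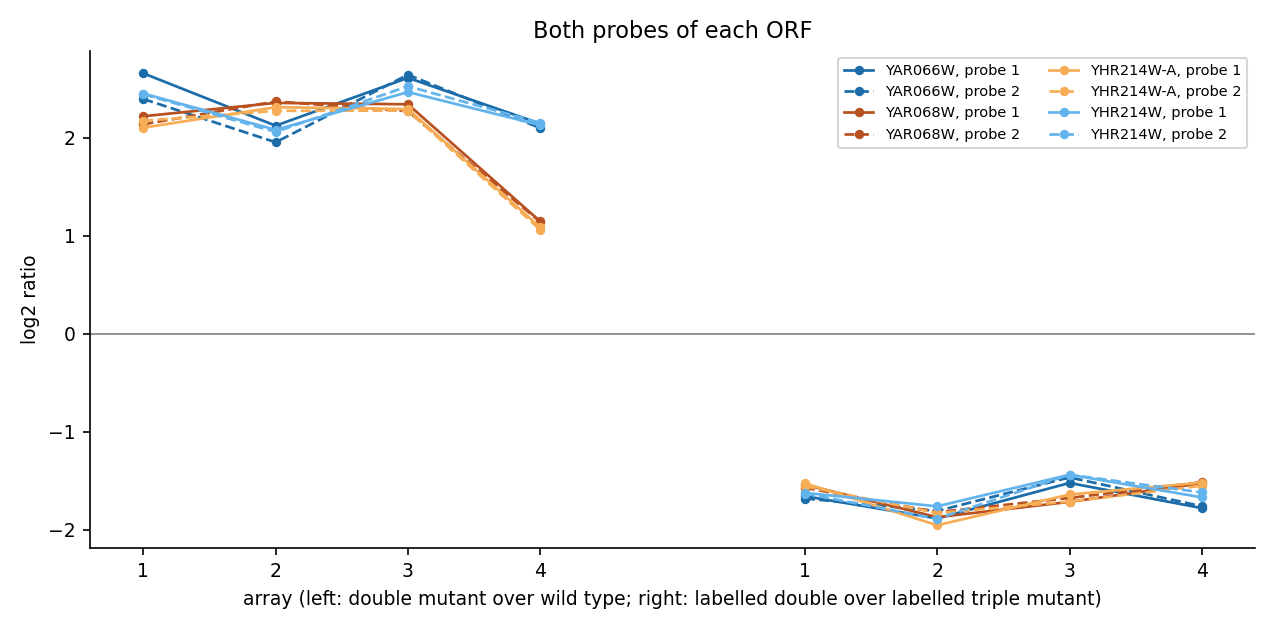
Log2 ratio (vertical axis) of the 8 probes of the 4 ORFs on each array (horizontal axis), with solid lines for probe 1 and dashed lines for probe 2 and a colour per ORF; the lines join replicate arrays only to guide the eye. Probes of YAR066W and YHR214W run together, probes of YAR068W and YHR214W-A run together, and array 4 against wild type separates the pairs by 1.05.

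The neighbouring ORFs of both chromosome ends were read on the same arrays. The array holds 25 ORFs from FLO1 to the end of chromosome I and from FLO5 to the end of chromosome VIII, of which 21 flank the 4 ORFs. The flanking ORFs had log2 ratios between -0.47 and 0.34 in the double mutant over wild type, with a median of -0.06, and between -0.19 and 0.45 in the labelled double over the labelled triple channel, with a median of 0.03. None came near the values of the 4 ORFs in either comparison. Against wild type, 1 of 21 flanking ORFs rose and 2 fell, beside 3.23% and 4.97% of all features, and on the other arrays 0 of 21 passed the test in either direction, beside 1.59% of all features. By limma without adjustment, 947 of all 6465 features had p below 0.05 on those other arrays. Of the 21 flanking ORFs, those among them were YAR060C and YHR212C, lower in the labelled double channel, and YAR062W, YHR211W, YHR213W and YHR217C, higher there (limma unadjusted p between 0.0021 and 0.029). Whether flanking ORFs passed this looser threshold more often than other features was not tested.

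YAR060C, an ORF of unknown function on the centromere side of YAR066W, was the flanking ORF that rose, with log2 ratios of 0.43, 0.48, 0.22 and 0.24 (mean 0.34 ± 0.132, SD, n = 4; limma adjusted p = 0.0107). Its paralog YHR212C had 0.33, 0.43, 0.20 and 0.08 on the same arrays, and it did not pass the test (mean 0.26 ± 0.153, SD, n = 4; limma adjusted p = 0.062). YHR219W and YHR218W, which belong to the repeated Y' elements at the chromosome end, fell. YHR219W had a mean of -0.47 ± 0.165 (SD, n = 4; limma adjusted p = 0.00199) and YHR218W one of -0.29 ± 0.0842 (SD, n = 4; limma adjusted p = 0.0418). The call of YAR060C was lost without array 1 against wild type (adjusted p = 0.0591) and with its other probe alone (0.26, adjusted p = 0.111). The call of YHR218W was lost without array 1 or 3 against wild type and without array 2, 3 or 4 against the triple mutant (limma adjusted p between 0.0662 and 0.153), while YHR219W passed whichever array was left out but not with the processed signals (adjusted p = 0.133) or with the 4 arrays of the comparison alone (adjusted p = 0.0851).

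The immediate neighbours on chromosome I lay close to 0 in the reported setting. YAR064W, next to YAR066W, had a mean log2 ratio of -0.02 ± 0.0358 against wild type (SD, n = 4). YAR069C and YAR070C, beyond YAR068W, had 0.02 ± 0.141 and -0.05 ± 0.0665 (SD, n = 4 each). These were dim: YAR064W, YAR069C and YAR070C were well above background in 7, 9 and 11 of 16 channel measurements, and their ratios moved with the treatment of background. With the smaller offset of 16 they were -0.05, 0.03 and -0.10 against wild type, and with the processed signals 0.06, 0.06 and -0.33. On the other arrays the processed signals gave 0.40, 0.48 and 0.38, in place of -0.04, -0.01 and -0.01, and none of these values passed the test. On chromosome VIII, the Ty retrotransposon ORFs YHR214C-B and YHR214C-C, which stand between YHR214W and YHR214W-A, had means of -0.05 ± 0.452 and -0.32 ± 0.580 against wild type (SD, n = 4 each). Their arrays ranged widely, and YHR214C-B ran from -0.68 to 0.34.

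The other duplicated pairs of the blocks were compared in the same way, and 7 of the 11 listed pairs had both ORFs on the array. YAR062W and YHR213W, remnants related to the flocculin genes, were the closest, with an RMS difference of 0.0333 and means of -0.08 and -0.08 against wild type and 0.22 and 0.22 on the other arrays. YAR060C and YHR212C differed by 0.0961, in the range of YAR066W with YHR214W at 0.106 and YAR068W with YHR214W-A at 0.0531. FLO1 and FLO5, which encode lectin-like proteins that make cells clump, differed by 0.145, and their means against wild type were 0.02 ± 0.117 and -0.02 ± 0.152 (SD, n = 4 each). PHO11 and PHO12 differed by 0.367, with means of -0.14 ± 0.328 and -0.19 ± 0.342 against wild type and 0.14 ± 0.121 and 0.37 ± 0.420 on the other arrays (SD, n = 4 each). YAR073W and IMD2, which encodes an IMP dehydrogenase of guanine nucleotide synthesis, differed by 0.278, with means of -0.29 ± 0.306 and -0.19 ± 0.242 against wild type (SD, n = 4 each). None of these ratios of FLO1, FLO5, PHO11, PHO12, YAR073W or IMD2 passed the test.

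**Figure D4:**
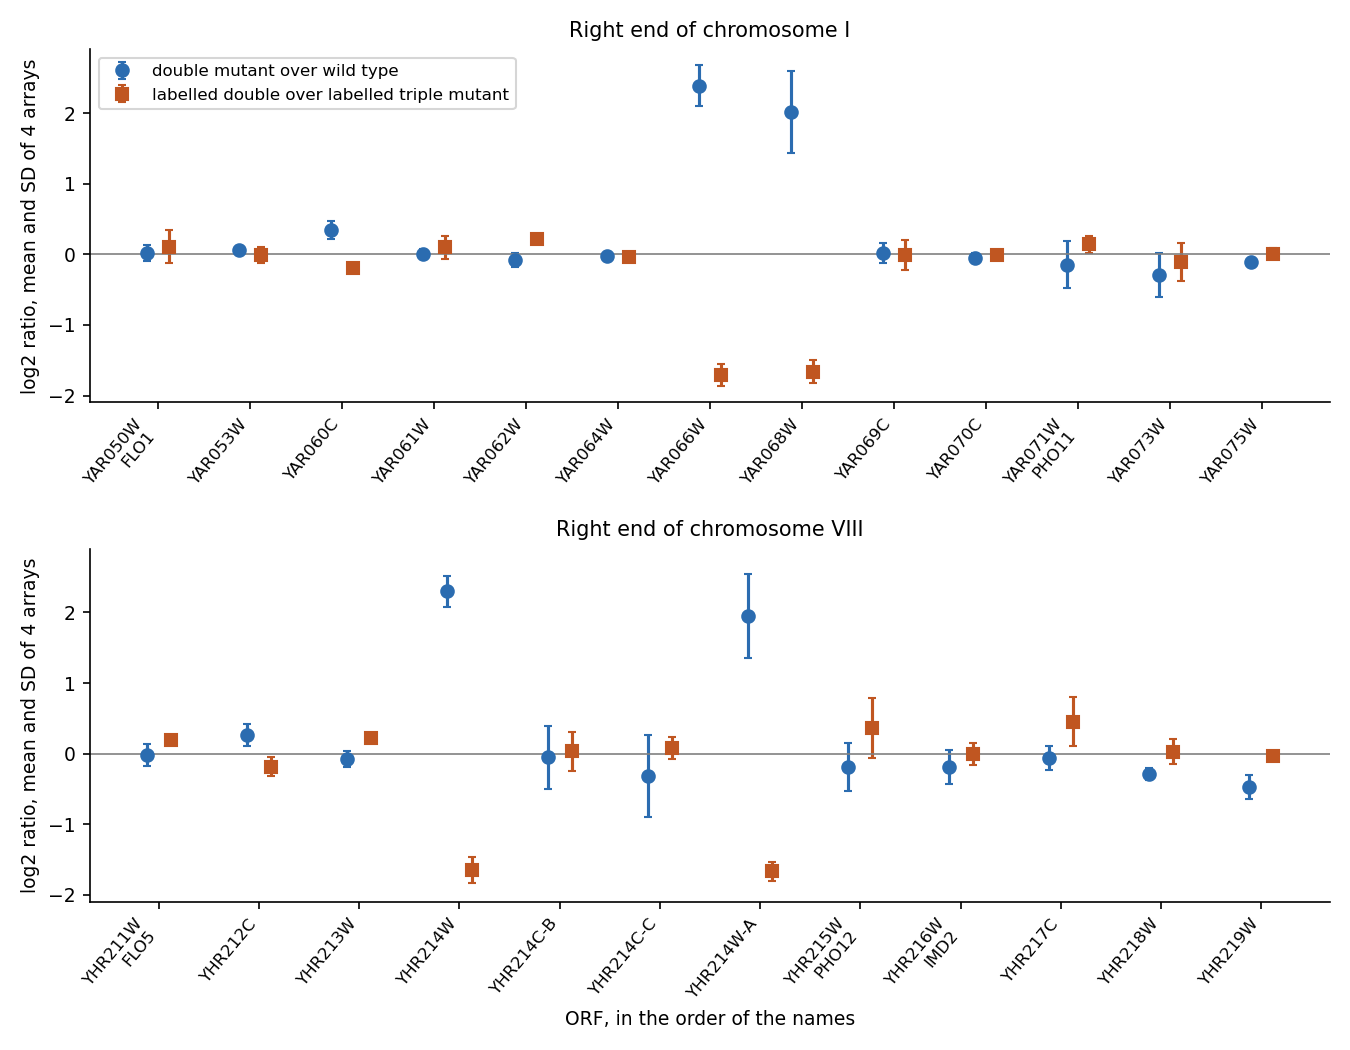
Mean log2 ratio with SD of 4 arrays (vertical axis) for the 25 ORFs of the right ends of chromosomes I (top) and VIII (bottom), in the order of their names (horizontal axis); circles show the comparison with wild type, double mutant on top, and squares the labelled double over the labelled triple channel. The 4 ORFs stand at 1.95 to 2.39 and at -1.71 to -1.65, and the 21 flanking ORFs stay between -0.47 and 0.45.

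Genes outside the blocks were ranked by the RMS difference of their log2 ratios, over the 8 arrays, from the mean of the 4 ORFs. Each of the 4 ORFs enters that mean, so their own distances of 0.198 to 0.230 are not comparable with those of other genes. The nearest other gene was ICT1, which encodes a lysophosphatidic acid acyltransferase, at 0.303. ICT1 had 2.32, 2.29, 2.40 and 2.09 against wild type and -1.69, -1.84, -1.70 and -2.32 on the arrays against the triple mutant. YOR1, the deleted transporter gene, followed at 0.335, then GRE2, a methylglyoxal reductase gene, at 0.494, TVS1 at 0.523 and YGR035C at 0.631. On array 4 against wild type TVS1 and YGR035C were also low, at 1.15 and 1.24, against 1.60 to 1.79 and 1.98 to 2.30 on the other arrays, whereas GRE2 was at its highest there, at 2.64. These likenesses describe 8 arrays that share a slide and a strain, and carry no test.

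**Figure D5:**
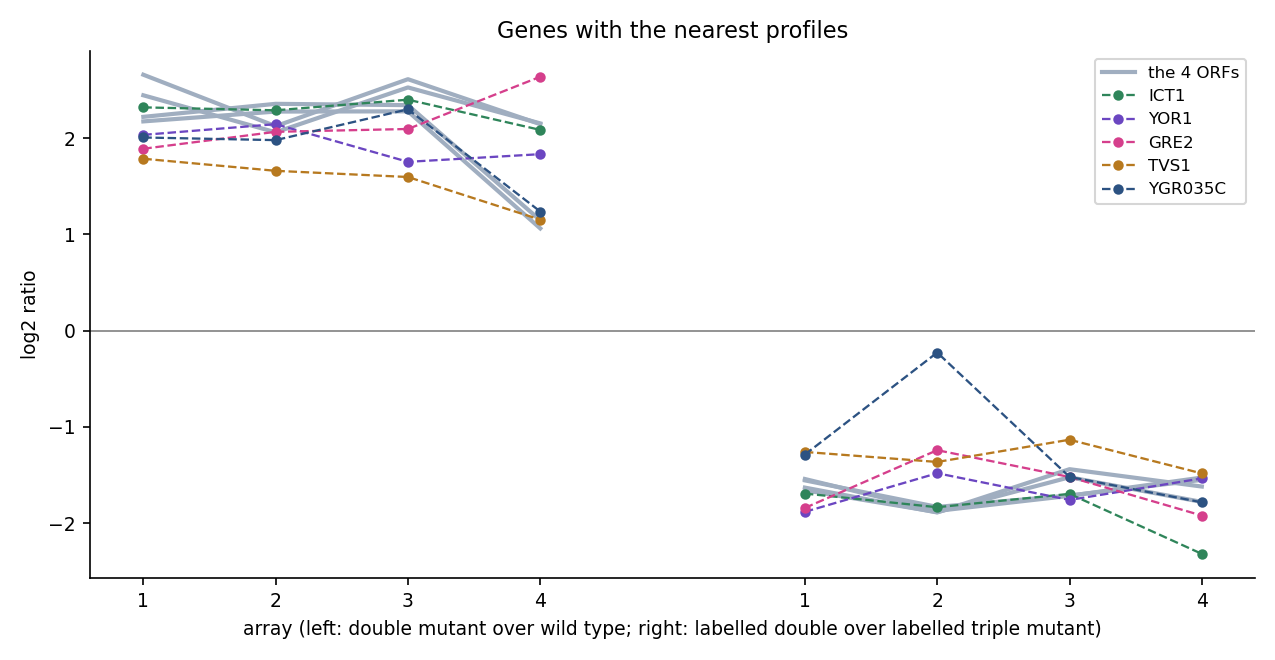
Log2 ratio (vertical axis) on each array (horizontal axis) of the 4 ORFs (grey lines) and of the 5 genes with the nearest profiles (coloured dashed lines); the lines join replicate arrays only to guide the eye. ICT1 and YOR1 run closest to the grey lines, at RMS differences of 0.303 and 0.335, and YGR035C departs on array 2 against the triple mutant.

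ICT1, YOR1 and GRE2 belong to a list of 12 genes made of PDR1 and known targets of PDR1 and PDR3. In that list 10 genes rose in the double mutant against wild type and 1 fell, the deleted gene PDR5. Over the 6461 features other than the 4 ORFs, 3.17% rose and 4.97% fell. The median log2 ratio of the list was 0.90, beside -0.01 over those features. The rise of PDR10 (0.36, limma adjusted p = 0.0482) was called in 9 of 25 settings. In the labelled double over the labelled triple channel, 8 of the 12 fell, PDR1 among them, and 1 rose, PDR15. Of the 6461 features other than the 4 ORFs, which include the list, 0.48% fell and 1.05% rose there. The median of the list was -1.20, beside -0.00 over those features. RSB1 had 3.095 against wild type and -1.83 on the other arrays, each further from 0 than any of the 4 ORFs. YOR1 and PDR5 are deleted in both mutants, and this list was known from earlier results to move on these arrays.

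Other genes at chromosome ends were described by their counts. Among the 10 outermost protein-coding genes of each chromosome arm, 288 of 317 were measured beside the 4 ORFs, and 13 rose (4.51%) and 33 fell (11.5%) in the double mutant against wild type, beside 3.23% and 4.97% of all features, with a median of -0.03. The chromosome-end list was counted in the reported setting alone. There 321 of all features were called lower against wild type, beside 9 with the processed signals and 26 with median centring. The highest of the called chromosome-end genes were PGU1, a polygalacturonase gene, at 0.66, ERV29, a cargo receptor gene, at 0.66, and MST28 at 0.59. The value of PGU1 depended on the setting: it was 1.86 with the processed signals (limma adjusted p = 0.0631), where YHR214W-A had 2.03 and YAR068W 2.08. SAM3, an S-adenosylmethionine permease gene, fell, at -0.69, as did YIL165C at -0.66 and ZRT1, a zinc transporter gene, at -0.59. YIL165C had -0.30, -0.67, -0.11 and -1.55 on arrays 1 to 4, and its fitted log2 ratio without array 4 was -0.40. It was called in 9 of 25 settings, and leaving out any array but array 4 against wild type ended its call, while SAM3 was called in 24.

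On the arrays against the triple mutant 3 of these chromosome-end genes rose (1.04%) and 2 fell (0.694%), beside 1.05% and 0.541% of all features. The median was 0.02, and the values were 0.54 for SAM3, 0.37 for YFL068W, 0.32 for PAU12, -0.67 for DIA1 and -0.29 for UBP11. The calls of SAM3 and DIA1 held in 24 and 25 of 25 settings, but those of PAU12, YFL068W and UBP11 held in 16, 14 and 12, and each of these 3 was lost when any array against the triple mutant was left out. YFL068W and UBP11 were also lost without array 1 against wild type, and UBP11 without array 2 of that set. YFL068W reached 0.67 with median centring, and UBP11 ran from -0.58 with the processed signals to -0.16 with its first probe alone.

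Families with copies in the blocks were checked beyond the ends of chromosomes I and VIII. None of the 5 flocculin genes passed the test in either comparison, with log2 ratios of -0.06 for FLO9, 0.01 for FLO10 and -0.10 for FLO11 against wild type. None of the 4 IMD-family features did either, with -0.02 for IMD3 and -0.00 for IMD4. Of the 4 acid phosphatase genes, PHO3 fell against wild type at -0.73 (limma adjusted p = 0.013), and PHO5 stood at 0.02. The call of PHO3 held in 21 of 25 settings. Settings that ended it included the fit without array 3 (-0.74, limma adjusted p = 0.054), the processed signals (adjusted p = 0.088) and median centring (adjusted p = 0.0594). HPF1 and CSS1, which encode secreted mannoproteins, had 0.08 and -0.17 against wild type and 0.15 and 0.26 on the other arrays, and neither passed the test.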

How the data were processed

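The authors deposited scanner output of 8 two-colour Agilent arrays (1 slide, Feature Extraction 10.7.3.1), with spot intensity values in linear units and other columns that hold outlier and well-above-background flags, per the file headers. Cultures, RNA extraction and labelling of 2 µg RNA follow the labels' protocols. A deposited table with 8 columns that match no sample title was not used. Mean signals were background-corrected (normexp, offset 50) and loess-normalised within arrays with control spots at weight 0, and outlier spots were set to missing. A probe was kept if well above background in at least 4 of 16 channel measurements, and each ORF took its brighter probe. The log2 ratios of 6465 features were fitted with limma 3.58.1 in R 4.3.3 (dye term, 1 coefficient per comparison, 5 residual degrees of freedom) and adjusted by Benjamini-Hochberg, with calls at an adjusted p below 0.05. The number of arrays limits the precision. Channel levels used Aquantile after loess. Symbols came from the RefSeq table of assembly R64, which matched 5869 of 6546 features. Genes named are the 4 ORFs, the duplicated pairs, called flanking ORFs, the 5 nearest profiles, up to 3 called chromosome-end genes per direction, and the listed families. The ORFs and all lists were chosen with earlier results of these data known. Alternatives covered background correction, normalisation, filter, probe choice, model and each array left out. Comparisons of promoter and protein sequences were not analysed here. The fit was tested on simulated data.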

Additional observations from a re-analysis of the deposited data

Results flagged for a closer look

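In 5 of 60 sets of 4 arrays, 1 array stood apart from the other 3 by Dixon's criterion, where chance alone sets about 1 in 20 apart. The log2 ratio of YAR068W in the double mutant over wild type was 1.15 on array 4, against 2.22 to 2.36 on the other arrays, and that of YHR214W-A was 1.06 on the same array, against 2.17 to 2.28. The ratio of YAR062W over wild type was -0.224 on array 2, against -0.0449 to -0.0179 on the others. In the labelled double over the labelled triple channel, YAR075W stood at 0.13 on array 4, against -0.0399 to -0.018, and YHR214C-C at -0.15 on array 3, against 0.137 to 0.177. YAR068W and YHR214W-A are a paralog pair whose signals cannot be told apart here, so their low values on array 4 are not separate observations.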

How the results depend on the processing

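The 4 ORFs kept their direction in both comparisons and, in the labelled double over the labelled triple channel, their call under all 24 alternatives. Over the fits with all arrays and those on the 4 arrays alone, YAR066W ranged from 2.28 to 2.64 against wild type and from -1.93 to -1.68 on the other arrays, YHR214W from 2.27 to 2.51 and -2.16 to -1.59, YAR068W from 1.98 to 2.19 and -1.74 to -1.65, and YHR214W-A from 1.92 to 2.13 and -1.73 to -1.65. The highest limma adjusted p on the other arrays was 0.0428, for YAR068W and YHR214W-A with an array left out.

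With each array left out in turn, YAR066W ran from 2.35 to 2.42 and from -1.76 to -1.66, YHR214W from 2.27 to 2.33 and from -1.72 to -1.59, YAR068W from 1.82 to 2.31 and from -1.78 to -1.58, and YHR214W-A from 1.76 to 2.24 and from -1.77 to -1.58. YAR066W minus YHR214W over all arrays ran from -0.0181 to 0.0353 and YAR068W minus YHR214W-A from 0.0264 to 0.0445. The highest value of YAR068W minus YHR214W-A came without array 2 against the triple mutant, where the exact sign-flip permutation p was 0.03125, against 0.0781 over 8 arrays. These p-values include the arrays that chose the ORFs and are unadjusted. YAR066W minus YHR214W was 0.177 with the processed signals, against 0.0109 in the reported setting (exact permutation p = 0.406 and 0.797).

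The number of features called depended strongly on the setting, and the cause was not tested. Against wild type (530) and against the triple mutant (103) it was 40 and 40 with the processed signals, 54 and 21 with median centring, 352 and 27 with dye-swap pairs averaged, 277 and 2050 with array quality weights, and 25 and 1250 with the 4 arrays of each comparison alone. Higher and lower calls were 31 and 9 with the processed signals and 28 and 26 with median centring against wild type, beside 209 and 321, and 14 and 26, then 5 and 16, against the triple mutant, beside 68 and 35. With 1 array left out it ran from 202 (without array 1 against wild type) to 825 (without array 4 against wild type), and from 23 (without array 3 or 4 against the triple mutant) to 472 (without array 4 against wild type). Against wild type it was 309, 334, 328 and 324 without array 3 of that set and without arrays 2, 3 and 4 of the other, and against the triple mutant 67, 25 and 37 without array 3 of the wild-type set and without arrays 1 and 2 of its own. Of the 21 flanking ORFs, 0 were called against wild type with the processed signals and with the 4 arrays alone, 1 with median centring and 5 with the mean of both probes, and from 1 to 4 with an array left out. Against the triple mutant 8 were called with quality weights and 7 with the 4 arrays alone, and from 0 to 4 with an array left out. Over 25 settings, the reported one included, YHR219W was called against wild type in 23, YAR060C in 19 and YHR218W in 12.

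Replicate numbers shared by the sets gave no clear pairing of the arrays. Deviations from the set means of same-numbered arrays correlated at -0.175, 0.202, 0.0692 and -0.0613 across 6413 features. Their residuals correlated at -0.692, 0.0183, -0.621 and -0.588, and the cause of the negative values was not tested. By neither measure did an array correlate best with its own number. With the replicate number as a block in place of the dye term, 244 and 40 features were called. The 4 ORFs were well above background in all channel measurements, but the size of their ratios still depended on the signals used. On the arrays against the triple mutant YHR214W was at -1.65 in the reported setting and at -2.16 with the processed signals. YAR068W was at -1.67 and -1.72, and the cause was not tested.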
